A study of Mus musculus with 6 samples.

Results

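The 40 genes described here are interferon-stimulated genes, named one by one as a set: the transcription factors that carry the interferon signal, the ISG15 modifier and its protease, RNA and DNA sensors, the Ifit, oligoadenylate synthetase and Mx families, further antiviral effectors, the guanylate-binding and immunity-related GTPases, and the peptide transporter subunit Tap1. They were taken as the rows of the deposited tables whose gene symbol equals a member, and all 40 were found among 55487 genes. The study measured liver RNA of male C57/Bl6J mice on a high-fat diet (HFD) in 6 libraries, 3 control and 3 mutant, to ask how a serine-to-alanine mutation of Rxra, named S65A in the design text, changes liver expression. Rxra encodes the retinoid X receptor alpha, a nuclear receptor that pairs with many other nuclear receptors.

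The control libraries carry WT in their titles and the genotype "Alb cre +/-". The mutant libraries carry Cre in their titles and the genotype "RXRa f/f Alb cre+/-". All 6 therefore carry an Alb-Cre allele, in which the albumin promoter drives the Cre recombinase in hepatocytes, and a change of Rxra through this allele is directed to hepatocytes and not to the immune and vascular cells of the liver. The labels give floxed alleles for the mutants and the design text gives S65A, and how the 2 relate is not stated in the sources used here. Age is not given there either. The labels do not say that the libraries come from separate animals, so a p-value here speaks only to how far the libraries of a group spread.

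Interferons are secreted proteins, and cells release those of type I and type III when they sense viral or other foreign nucleic acid. Type I and type III interferons signal through JAK kinases to a complex that contains STAT2 and IRF9 and binds the interferon-stimulated response element, whereas type II interferon (interferon gamma) acts through the gamma-activated site. In liver, hepatocytes, Kupffer cells and endothelial cells all respond to interferon, and a low level of these genes is present without infection.

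The sequences below are shown because letters matching the response element stand in front of 17 members, and letters matching the gamma-activated site in front of 7. They are RefSeq sequences on GRCm38.p6, the assembly also called mm10, and the window searched was the 250 bases before an annotated start. Capitals mark the core of the interferon-stimulated response element, searched as GAAANNGAAA, or of the gamma-activated site, searched as TTCNNNGAA, both on either strand and with overlapping matches counted separately. The whole windows of Isg15 (chr4:156200819-156201068, minus strand) and of the first RefSeq start of Ifit2 (chr19:34550444-34550693, plus strand) are printed 5′ to 3′ on the strand of the gene. The capitals of Isg15 join 3 overlapping cores, and those of Ifit2 mark 1 gamma-activated core far from the start.
Isg15: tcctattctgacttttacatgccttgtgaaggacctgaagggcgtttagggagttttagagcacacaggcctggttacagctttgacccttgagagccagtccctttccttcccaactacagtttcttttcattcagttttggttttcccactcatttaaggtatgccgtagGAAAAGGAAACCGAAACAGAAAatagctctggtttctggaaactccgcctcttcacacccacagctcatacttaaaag
Ifit2: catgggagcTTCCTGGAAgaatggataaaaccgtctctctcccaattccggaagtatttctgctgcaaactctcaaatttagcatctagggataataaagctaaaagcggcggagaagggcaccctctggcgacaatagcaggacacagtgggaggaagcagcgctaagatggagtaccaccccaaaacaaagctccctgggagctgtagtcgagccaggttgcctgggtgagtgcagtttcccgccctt

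For other members the core is shown with up to 10 bases on each side, 5′ to 3′ on the strand on which the core reads as spelled above. The response element cores of Gbp2, Gbp7, Igtp, Irgm1, Ifit1, Ifit3, Oas3 and Rsad2 and the gamma-activated core of Irf1 were chosen to cover the role groups whose values are given below. The flanking bases differ from gene to gene, while the repeated GAAA of the response element is shared because the search asked for it.
Gbp2: ttaagacagtGAAAGTGAAActaaaagagt
Gbp7: atggagaactGAAACTGAAActgcacacac
Igtp: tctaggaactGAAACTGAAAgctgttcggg
Irgm1: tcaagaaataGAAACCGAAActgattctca
Ifit1: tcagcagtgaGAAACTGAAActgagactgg
Ifit3: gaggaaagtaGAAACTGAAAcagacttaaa
Oas3: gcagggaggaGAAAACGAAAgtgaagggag
Rsad2: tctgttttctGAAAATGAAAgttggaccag
Irf1: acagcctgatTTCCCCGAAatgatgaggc

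A window was found for 30 of the 40 members; Usp18, Dhx58, Zbp1, Oas2, Mx1, Mx2, Ifi27, Rtp4, Parp14 and Iigp1 had none in the table used. Some genes had more than 1 window, and a gene was counted if any of its windows held the core. The response element core was present for 17 of the 30 members (56.7%), against 3.46% of all 27025 genes in that table and 3.37% of the tested genes with a window. The gamma-activated core stood in 7 members (23.3%), against 8.13% of all genes and 7.39% of tested genes. Both cores were present in 5 members, which were Oas1a, Bst2, Gbp7, Igtp and Irgm2. These matches describe the letters in the windows and do not show that a factor was bound.

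**Figure D1:**
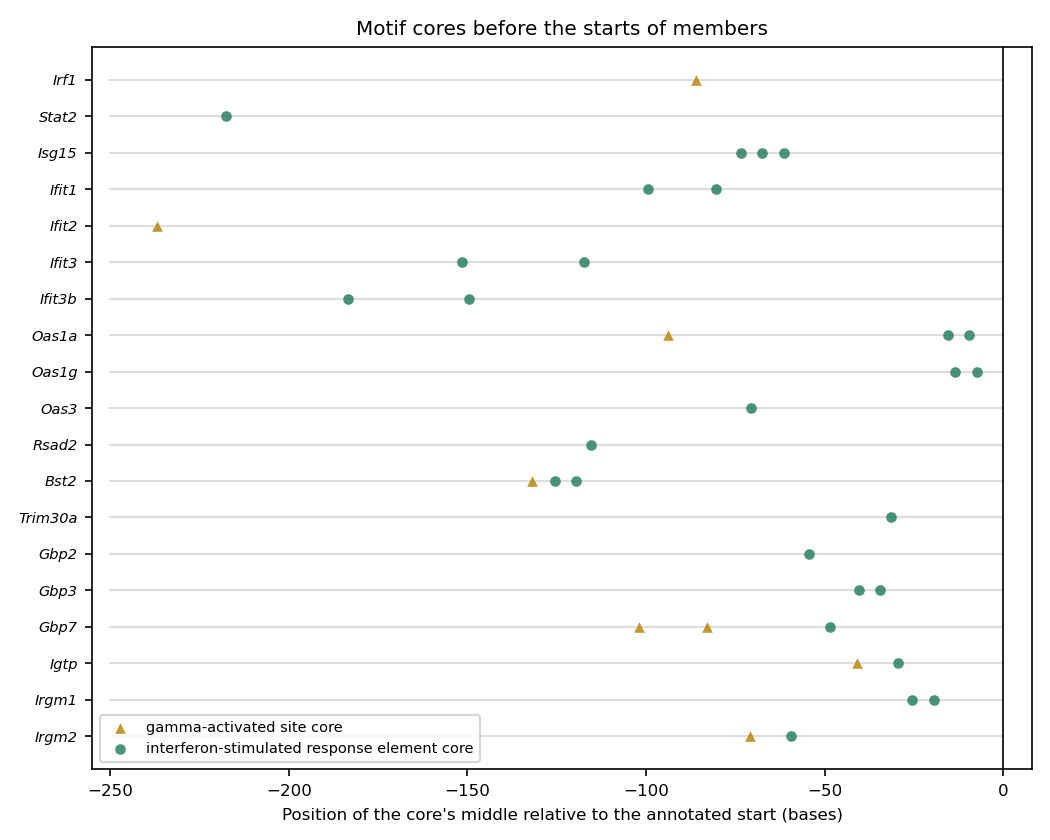
Positions of motif cores in the 250 bases before the annotated start (x axis, bases relative to the start at 0) for the 19 members with at least 1 core; circles are response element cores and triangles gamma-activated site cores. Several members, among them Isg15, Gbp3, Oas1a and Irgm1, hold overlapping response element cores that plot close together.

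Library totals ranged from 35847386 to 43162557 estimated counts. Levels are given as CPM, estimated counts scaled to library size, after TMM scaling, which sets the level of the typical gene equal between the groups, and a difference is relative to that gene. The scaling factors were 1.15 in each control library and between 0.863 and 0.886 in the mutant libraries, so the scaling matters for direction. Scaled to library totals instead, the median gene was 0.40 lower in the mutants on the log2 scale. Rxra, the targeted gene, measured 501, 471 and 414 CPM in the controls and 700, 522 and 609 CPM in the mutants; the log2 fold change of 0.40 ± 0.13 (SE) did not pass the test (adjusted p = 0.0724) and was -0.20 in the TPM fit. A gene count does not test for a point mutation. Hepatocyte markers were abundant in every library, summing to between 90871 and 111315 CPM over 10 genes.

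All 40 members passed the filter on low counts and were tested with edgeR. Over the whole set 4 genes fell in the mutants, Ifit2, Cmpk2, Ifi44 and Gbp2, and 0 rose. The 4 lower members are 10% of the set, beside 6.82% of all 14286 tested genes called lower and 6.64% called higher, so the share of called members lay near the background. The remaining 36 members did not pass, 6 of them with an adjusted p between 0.05 and 0.1. The log2 fold changes of the members nonetheless lay mostly on one side: 33 were negative and 7 positive, the median was -0.56 against 0.00 over all tested genes, and the range was -2.44 to 0.57. In 12 members (30%) every mutant library was below every control library, which was so for 17.5% of tested genes. The reverse order held for 1 member, Ifi27, and in the other 27 members the groups overlapped.

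**Figure D2:**
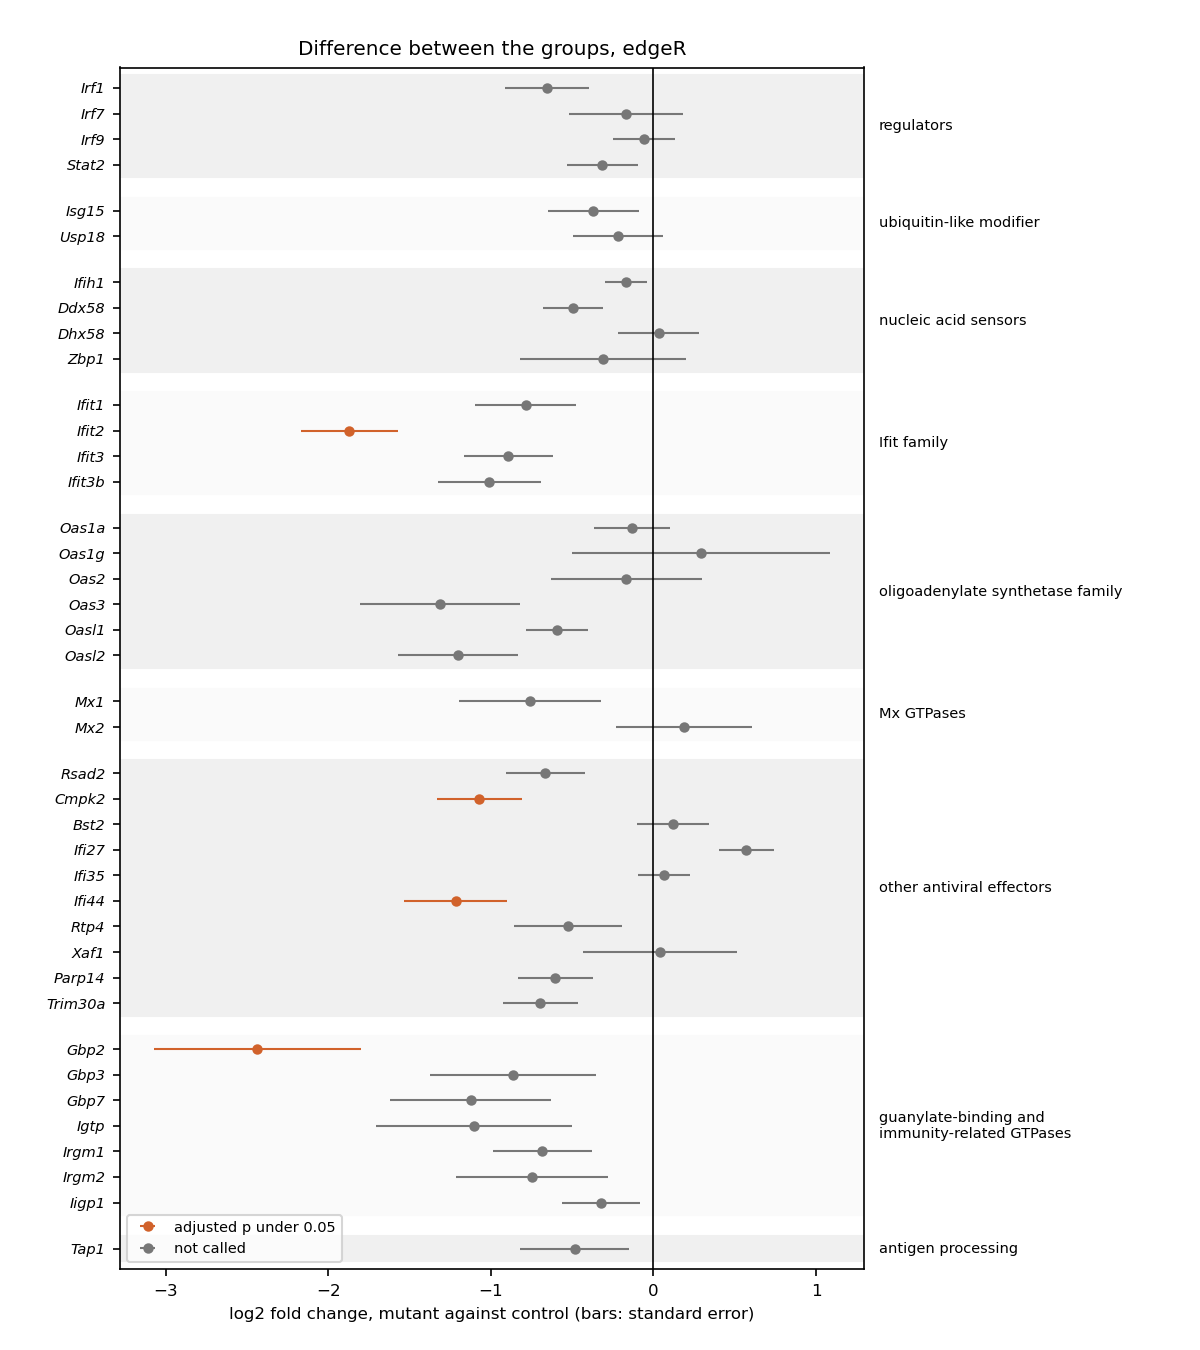
Log2 fold change of each member, mutant against control, from edgeR (x axis; bars are standard errors), grouped by role. The 4 members past an adjusted p of 0.05, all at -1.07 or below, are in orange, and most of the other points lie to the left of 0 with wide bars.

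How many members passed depended on the fit, while the distance between the members' median and that of all genes moved little. With library totals 19 members were lower, 47.5% against 31.6% of all genes. With limma on log2(TPM + 1), where TPM is the length-scaled transcript abundance, 26 of 37 members were lower, 70.3% against 63.6% of all genes. DESeq2 called 13 members lower, 32.5% against 9.41%, and edgeR without a filter on low counts called 15, 37.5% against 5.45%. In these 4 fits the members' median was between 0.53 and 0.56 below the median of all genes. Leaving out control replicate 1 or control replicate 2 gave 1 member lower, leaving out mutant replicate 2 gave 2, and leaving out control replicate 3 gave 7. The share of all genes called lower is not given here for the fits with 1 library left out.

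The 4 regulators did not pass the test, and their groups overlapped. Irf1, a transcription factor induced strongly by interferon gamma, measured 51.6, 33.7 and 24.7 CPM in the controls and 28.6, 20.3 and 21.2 CPM in the mutants. Mutant replicate 1 stood above control replicate 3, and the log2 fold change was -0.65 ± 0.26 (adjusted p = 0.134).

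Irf7, the amplifier of type I interferon production, measured 61.2, 46.2 and 24.3 CPM in the controls and 55.8, 34.0 and 27.4 CPM in the mutants. Replicate 1 was the high library in each group, and the lowest of all 6 was a control. The log2 fold change was -0.17 ± 0.35 (adjusted p = 0.801).

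Irf9, the DNA-binding subunit of the complex with STAT2, measured 51.1, 44.1 and 36.2 CPM in the controls and 52.6, 33.1 and 40.5 CPM in the mutants. The highest library was a mutant one, and the log2 fold change was -0.06 ± 0.19 (adjusted p = 0.874). Its partner Stat2 measured 48.4, 57.4 and 36 CPM in the controls and 41.2, 27.5 and 45.3 CPM in the mutants. Its spread within each group was of the size of the difference between them, a log2 fold change of -0.31 ± 0.22 (adjusted p = 0.385).

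Isg15 encodes a ubiquitin-like protein that is joined to other proteins during the interferon response, and Usp18 removes it and also dampens receptor signalling. Isg15 measured 18.5, 15.6 and 9.65 CPM in the controls and 14.8, 11.0 and 8.03 CPM in the mutants. Only control replicate 1 and control replicate 2 lay above all mutants, and the log2 fold change was -0.37 ± 0.28 (adjusted p = 0.429).

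Usp18 measured 27.4, 23.3 and 15.6 CPM in the controls and 26.9, 15.9 and 14.1 CPM in the mutants. Its first mutant library was close to the highest control, and the log2 fold change was -0.22 ± 0.28 (adjusted p = 0.663).

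None of the 4 sensors passed, and their median log2 fold change was -0.24. Ddx58 (RIG-I), a sensor of viral RNA ends, measured 37.0, 36.3 and 36.2 CPM in the controls and 33.9, 19.5 and 24.4 CPM in the mutants. The controls were nearly equal, with a ratio of highest to lowest of 1.02, and all 3 mutants lay below them, mutant replicate 1 narrowly. The log2 fold change was -0.49 ± 0.18 (adjusted p = 0.117).

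Ifih1 (MDA5), which senses long double-stranded RNA, measured 48.1, 42.0 and 42.0 CPM in the controls and 44.9, 38.8 and 33.9 CPM in the mutants, a log2 fold change of -0.17 ± 0.13 (adjusted p = 0.436). Zbp1, a sensor of left-handed nucleic acid that can trigger necroptosis, measured 23.4, 16.7 and 7.33 CPM in the controls and 22.9, 7.13 and 8 CPM in the mutants. In both groups replicate 1 held about as much Zbp1 transcript, and the other mutant libraries matched the lowest control, for a log2 fold change of -0.31 ± 0.51 (adjusted p = 0.744). Dhx58, the regulatory relative of these RNA sensors, had a log2 fold change of 0.03 (adjusted p = 0.951), which was -0.36 with library totals.

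Of the 4 Ifit genes 1 passed (25%), beside 6.82% of all tested genes called lower. All 4 had log2 fold changes of -0.79 or below, with a median of -0.95. Their proteins bind RNA with foreign ends and limit its translation. Ifit2 (chr19:34550694-34576419) fell in the mutants, from 15, 7.54 and 7.76 CPM in the controls to 2.56, 2.73 and 3.00 CPM. The mutants were within a narrow band, and even the lowest control was well above the highest mutant. The means were 10.1 ± 4.25 and 2.76 ± 0.219 CPM (SD, n = 3), and the log2 fold change was -1.87 ± 0.30 (adjusted p = 0.00646). Ifit2 was called lower in all 16 alternative fits, with adjusted p between 3.8e-08 and 0.0295.

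Ifit3 measured 46.6, 28.8 and 19.5 CPM in the controls and 18.0, 15.9 and 17.2 CPM in the mutants. Its 3 mutant libraries also lay below all controls, though control replicate 3 was close to them, and the log2 fold change of -0.89 ± 0.27 missed the threshold (adjusted p = 0.0664). Ifit3b measured 12.2, 7.87 and 5.06 CPM in the controls and 4.13, 4.87 and 3.48 CPM in the mutants, a log2 fold change of -1.01 ± 0.32 (adjusted p = 0.0711). Ifit3 and Ifit3b are near-identical copies between which reads may be split; summed, their log2 fold change was -0.92 (adjusted p = 0.06). Ifit1 had a log2 fold change of -0.79 (adjusted p = 0.133), with overlapping groups.

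The oligoadenylate synthetases make the second messenger that activates RNase L, and Oasl1 and Oasl2 encode related proteins. None of the 6 passed. Oasl2 measured 10.3, 9.02 and 6.05 CPM in the controls and 5.78, 3.04 and 2.16 CPM in the mutants. Mutant replicate 1 lay just under control replicate 3, and the log2 fold change was -1.20 ± 0.37 (adjusted p = 0.065).

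Oasl1, which restrains translation of Irf7, measured 25.2, 27.9 and 18.9 CPM in the controls and 18.1, 17.2 and 12.4 CPM in the mutants, a log2 fold change of -0.59 ± 0.19 (adjusted p = 0.0785). Oas3, present at low levels, measured 3.63, 1.5 and 1.75 CPM in the controls and 1.36, 0.558 and 0.838 CPM in the mutants, a log2 fold change of -1.31 ± 0.49 (adjusted p = 0.117). In these 3 of the 6 genes (50%) every mutant library was below every control library, which was so for 17.5% of tested genes. Oas1a, Oas1g and Oas2 had log2 fold changes of -0.13, 0.29 and -0.17 with adjusted p of 0.765, 0.849 and 0.851. Oas1a and Oas1g are near-identical copies, and control replicate 3 held 0.09 CPM of Oas1g against 1.65 and 1.59 CPM in the other controls; the sum of both genes had a log2 fold change of -0.05 (adjusted p = 0.917).

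Mx1 and Mx2 encode dynamin-like GTPases that block viral entry and replication, and C57BL/6 strains carry a defective Mx1. Mx1 measured 3.46, 1.84 and 1.44 CPM in the controls and 1.62, 0.868 and 1.48 CPM in the mutants, a log2 fold change of -0.76 ± 0.44 (adjusted p = 0.292). Mx2 measured 3.57, 4.15 and 3.98 CPM in the controls and 4.11, 1.92 and 7.32 CPM in the mutants. The mutants of Mx2 spanned both sides of the controls, and the log2 fold change was 0.19 ± 0.42 (adjusted p = 0.815).

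Of the 10 other antiviral effectors 2 fell (20%), beside 6.82% of all tested genes called lower. The median log2 fold change of the 10 was -0.56. Cmpk2 (chr12:26469204-26479837), a mitochondrial nucleotide kinase gene that neighbours the antiviral gene Rsad2, fell from 22.2, 18.1 and 14.2 CPM in the controls to 9.55, 5.52 and 10.8 CPM in the mutants. No mutant library reached the lowest control. The means were 18.1 ± 4.00 and 8.62 ± 2.76 CPM (SD, n = 3), and the log2 fold change was -1.07 ± 0.26 (adjusted p = 0.0321). Leaving out control replicate 1, control replicate 2 or mutant replicate 1 ended the call, with adjusted p of 0.104, 0.0824 and 0.0707.

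Ifi44 (chr3:151730922-151749960) fell from 9.05, 7.33 and 5.02 CPM in the controls to 4.13, 2.97 and 2.06 CPM in the mutants. The groups were separate, with the nearest libraries being control replicate 3 and mutant replicate 1. The means were 7.13 ± 2.03 and 3.06 ± 1.04 CPM (SD, n = 3), and the log2 fold change was -1.22 ± 0.32 (adjusted p = 0.0392). The call of Ifi44 ended when control replicate 1, control replicate 2, mutant replicate 2 or mutant replicate 3 was left out, with adjusted p of 0.127, 0.101, 0.094 and 0.0805.

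Ifi27, a small mitochondrial and nuclear-envelope protein gene, was the 1 member whose mutant libraries all lay above all controls. It measured 81.5, 86.9 and 66.8 CPM in the controls and 147, 107 and 95.7 CPM in the mutants. Mutant replicate 1 was the highest library. The log2 fold change of 0.57 ± 0.17 did not pass (adjusted p = 0.0619); it passed in 4 of the 16 alternatives. With library totals the value was 0.18, and in TPM the means were 197 ± 24.4 and 195 ± 50.8 (SD, n = 3), with a log2 fold change of -0.04 in the limma fit.

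The other 7 effectors did not pass. Rsad2 (viperin), Trim30a, Parp14 and Rtp4 had log2 fold changes of -0.67, -0.70, -0.61 and -0.52, with adjusted p of 0.109, 0.0838, 0.123 and 0.338. Bst2 (tetherin), Ifi35 and Xaf1 had log2 fold changes of 0.12, 0.06 and 0.04, with adjusted p of 0.77, 0.837 and 0.966, and all 3 values were negative with library totals and in the TPM fits. Rtp4 overlaps Masp1, an abundant liver gene on the opposite strand with a mean of 5217 estimated counts against 790 for Rtp4, and whether counting used strand is not given in the sources used here. Irf7 and Tap1 likewise overlap Phrf1 and Psmb9 in part on the opposite strand, and Irf9 overlaps Rnf31 in part on the same strand. The values of Irf7, Irf9 and Tap1 are uncertain to that extent.

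Of the 7 GTPase members 1 passed (14.3%), beside 6.82% of all tested genes called lower. All 7 had negative log2 fold changes, with a median of -0.86. These proteins, induced above all by interferon gamma, attack the membranes around intracellular microbes. Gbp2 (chr3:142620602-142638008) fell from 55.9, 17.4 and 9.81 CPM in the controls to 8.22, 3.84 and 3.19 CPM in the mutants. The groups did not overlap, but control replicate 1 held 5.70 times as much as control replicate 3, and that control was close to mutant replicate 1. The means were 27.7 ± 24.7 and 5.08 ± 2.73 CPM (SD, n = 3), and the log2 fold change was -2.44 ± 0.64 (adjusted p = 0.04). Without control replicate 1 the log2 fold change was -1.41 (adjusted p = 0.0928). The call also ended without control replicate 2 (adjusted p = 0.0623), without any 1 of the mutants (0.0565, 0.115 and 0.1), and with robust quasi-likelihood fitting (0.0862).

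Gbp7 measured 65.8, 36.8 and 15.8 CPM in the controls and 28.3, 14.2 and 11.6 CPM in the mutants, a log2 fold change of -1.12 ± 0.49 (adjusted p = 0.175). Irgm1, a regulator of the other immunity-related GTPases, measured 150, 102 and 63.2 CPM in the controls and 86.3, 51.5 and 58.2 CPM in the mutants, a log2 fold change of -0.68 ± 0.30 (adjusted p = 0.178). For both, the first mutant library was above control replicate 3. Igtp and Irgm2 overlap on the same strand, so their values are not fully separate; Igtp ranged from 34.1 to 212 CPM over the controls and from 35.1 to 91.1 CPM over the mutants. Igtp, Gbp3, Irgm2 and Iigp1 had log2 fold changes of -1.10, -0.86, -0.75 and -0.32, with adjusted p of 0.267, 0.306, 0.332 and 0.419.

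Tap1, a subunit of the transporter that loads peptides onto MHC class I, measured 87.7, 51.1 and 33.2 CPM in the controls and 54.5, 36.7 and 31.5 CPM in the mutants. Mutant replicate 1 exceeded control replicates 2 and 3, and the log2 fold change was -0.49 ± 0.34 (adjusted p = 0.383).

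**Figure D3:**
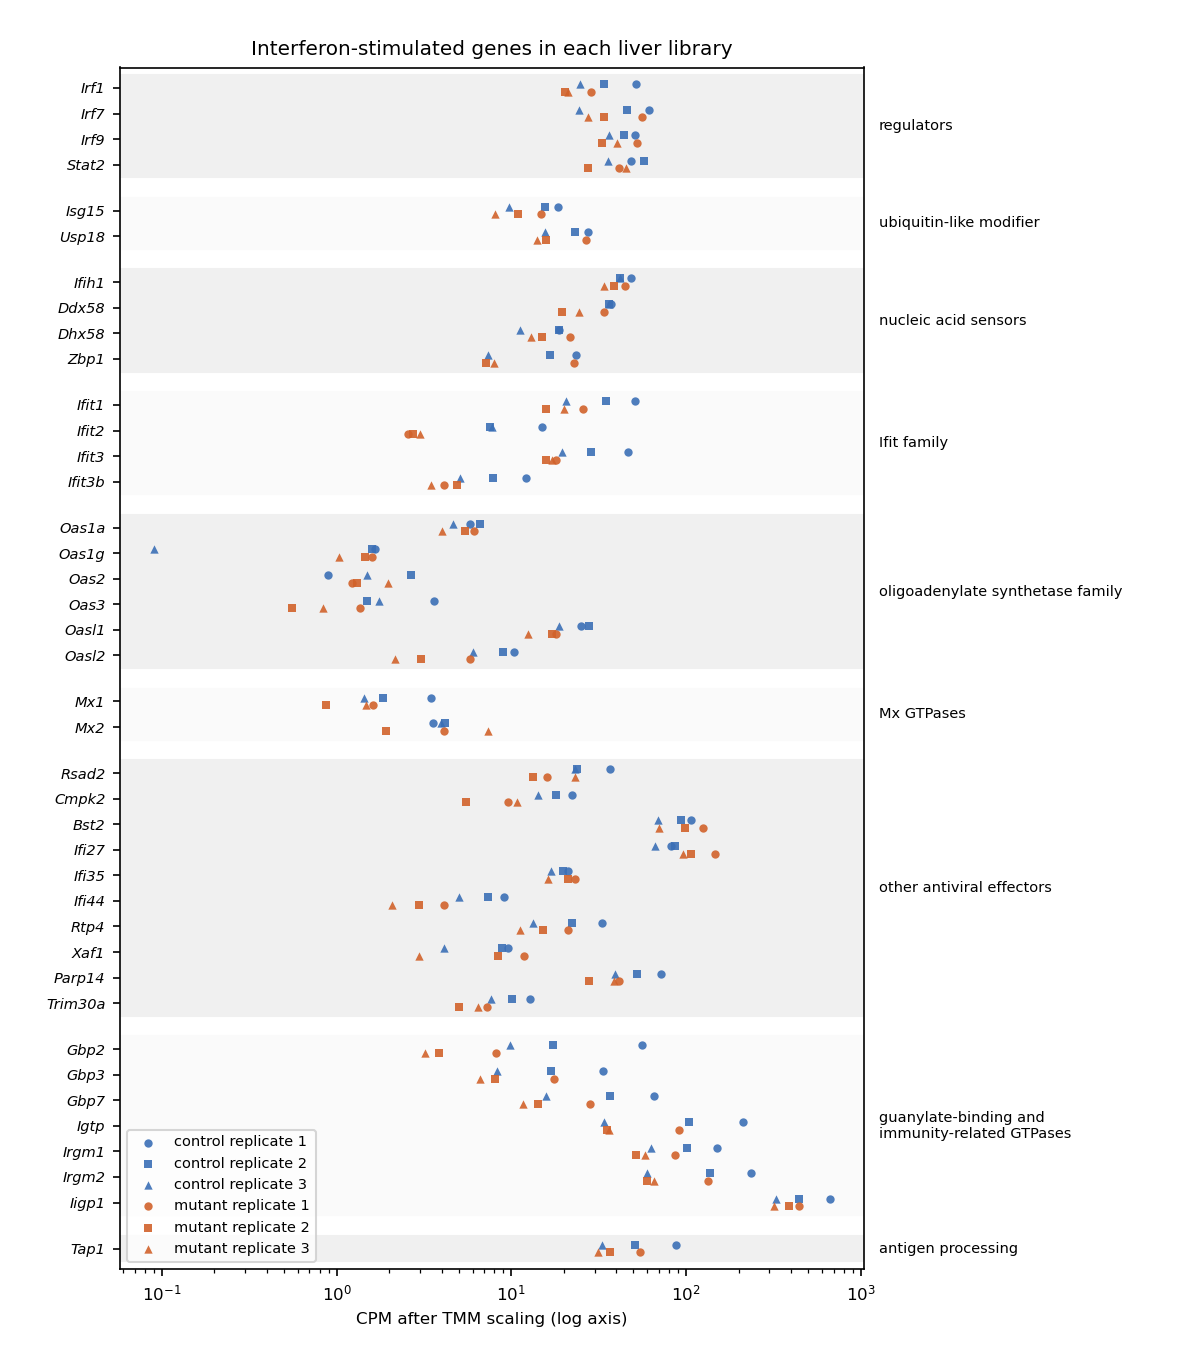
CPM after TMM scaling of each member (log x axis) in each of the 6 libraries, control in blue and mutant in orange, with the replicate given by the marker. In most rows the blue circle of control replicate 1 is farthest right, and the blue triangle of control replicate 3 lies among the mutant points.

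Compared per length, the most abundant members in the controls were Iigp1 at 284 ± 101, Bst2 at 250 ± 49.8 and Ifi27 at 197 ± 24.4 TPM, followed by Igtp, Irgm1, Irgm2 and Isg15 at 97.0, 83.3, 65.5 and 48.9 TPM. The first 3 overlapped in their range of mean ± SD. The same 7 genes ranked highest in the mutants, led by Ifi27, Bst2 and Iigp1 at 195, 181 and 151 TPM. Of the genes that fell, Ifit2 and Ifi44 were at 4.30 TPM each in the controls.

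The members varied more within the control group than genes in general did. The median ratio of the highest to the lowest control was 2.02 for members and 1.31 for all tested genes, and 20 members (50%) had a ratio of at least 2, against 16.6% of tested genes. Igtp had a ratio of 6.22, Gbp2 5.70, Gbp7 4.15, Gbp3 4.04 and Irgm2 3.91, and Oas1g, through its 1 low library, 18.4. Members are not independent of each other here, since they were measured in the same 3 libraries. In the mutants the median ratio was 1.73 against 1.36, and 12 members (30%) reached 2 against 20.1% of tested genes.

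The order of the libraries was shared by most members. Control replicate 1 was the highest control in 33 members (82.5%, against 33.9% of tested genes), and control replicate 3 the lowest in 36 (90%, against 36.2%). Among the mutants, replicate 1 was the highest in 33 members (82.5%, against 29.8%). The median log2 deviation of the members from their own mean over the libraries was 0.74, 0.33 and -0.20 in the controls and 0.12, -0.52 and -0.41 in the mutants. Mutant replicate 1 exceeded control replicate 3 in 27 members. Control replicate 1 was above every mutant in 31 members and control replicate 2 in 25, while control replicate 3 was at or below the highest mutant in 28.

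**Figure D4:**
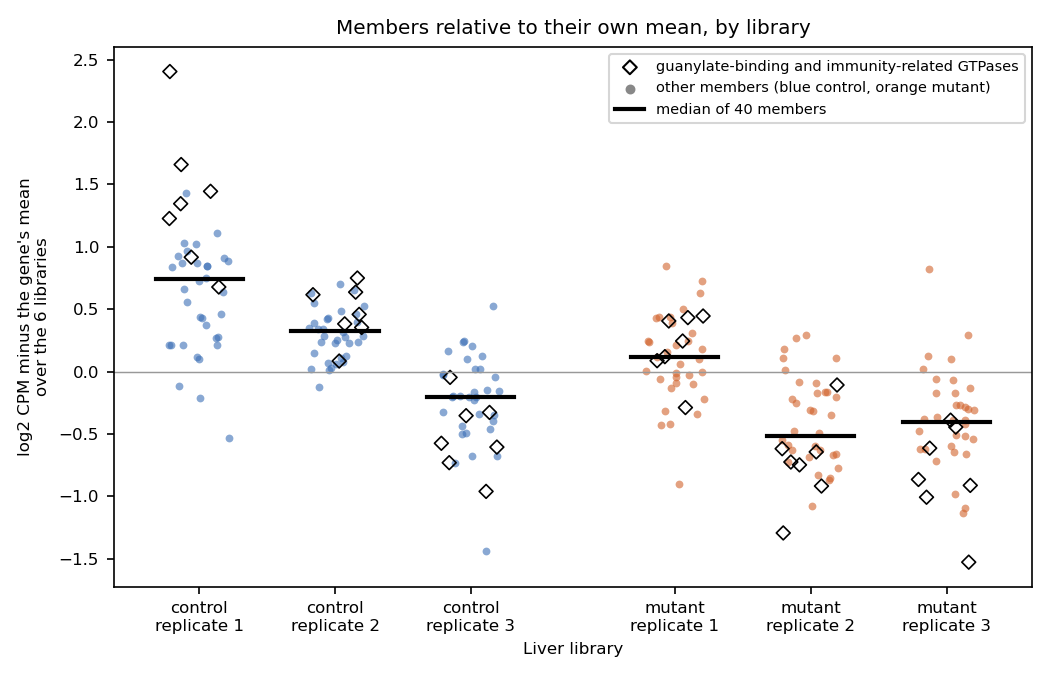
Log2 deviation of each member from its own mean over the 6 libraries (y axis, on log2 of CPM + 0.5), by library; each point is 1 member, open diamonds are the GTPases and black lines the medians of all 40 members. The medians run from 0.74 in control replicate 1 to -0.52 in mutant replicate 2, and mutant replicate 1 at 0.12 lies above control replicate 3 at -0.20.

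The role groups differed in how far the libraries stood apart. For the GTPases the median deviations were 1.35, 0.46 and -0.57 in the controls and 0.25, -0.72 and -0.86 in the mutants, so that control replicate 3 lay well below mutant replicate 1. For the Ifit genes the medians of the groups did not overlap, although Ifit1 itself did, with 1.03, 0.42 and -0.18 in the controls and -0.37, -0.59 and -0.51 in the mutants. The standard errors reflect this spread: their median was 0.30 over the members and 0.20 over all tested genes.

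Members with a response element core had a median log2 fold change of -0.75 (17 genes, from -2.44 to 0.29) and those with a window but no core -0.49 (13 genes, from -1.87 to 0.06). The called genes stood on both sides: Gbp2 has the core, while the windows of Ifit2, Cmpk2 and Ifi44 do not hold these letters. GAAA repeats with other than 2 bases between them, as in the window of Ifi44, were not counted.

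Upstream of the members, 20 of 21 interferon genes listed, among them all interferon alpha genes listed and Ifnb1, were at 0 in every library. Ifng, the interferon gamma gene, had 13.3, 2.30 and 1.55 estimated counts in the controls and 0 in each mutant, too few to be tested.

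Of 41 tested genes for receptors, signalling and induction of interferon, 1 rose and 3 fell (7.32%), a share near the 6.82% of all tested genes called lower. Ifngr2, a chain of the interferon gamma receptor, fell from 28.6, 29.7 and 41.4 CPM to 24.0, 16.6 and 16.5 CPM, a log2 fold change of -0.80 ± 0.20 (adjusted p = 0.0341); the call was lost without any 1 of the 3 controls, without mutant replicate 2 or 3, and with the replicate number as a block (adjusted p between 0.0549 and 0.0993). Control replicate 3, the lowest control for 36 members, was the highest for Ifngr2. The other chain Ifngr1 and the kinase Jak2 had log2 fold changes of -0.44 ± 0.13 and -0.52 ± 0.15 (adjusted p = 0.0616 and 0.0509).

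The chains of the type I receptor, Ifnar1 and Ifnar2, measured 34.3 ± 2.31 and 63.9 ± 9.87 CPM in the controls and 37.7 ± 2.89 and 72.3 ± 10.3 CPM in the mutants (SD, n = 3), with log2 fold changes of 0.13 and 0.18 (adjusted p = 0.46 and 0.479) that turned negative with library totals. Socs1, the feedback inhibitor of JAK kinases, had a log2 fold change of -1.0 ± 0.63 (adjusted p = 0.34).

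Among induction genes Ikbke, a kinase that phosphorylates Irf3 and Irf7, fell from 21.2 ± 2.16 to 13.2 ± 0.285 CPM (SD, n = 3), a log2 fold change of -0.69 ± 0.12 (adjusted p = 0.00998). Irf8, a factor of macrophages and dendritic cells, fell from 10.1 ± 2.15 to 5.08 ± 0.958 CPM, a log2 fold change of -0.99 ± 0.22 (adjusted p = 0.0227), and lost its call without control replicate 1, mutant replicate 1 or mutant replicate 3 (adjusted p = 0.082, 0.0711 and 0.0541). Mavs, the adaptor of the RNA sensors, rose from 69.8 ± 1.57 to 87.7 ± 2.17 CPM relative to the typical gene, a log2 fold change of 0.33 ± 0.08 (adjusted p = 0.038). That call was lost without any 1 of the 6 libraries, without a filter (adjusted p = 0.0751) and with the replicate number as a block (0.0681). The value was -0.07 with library totals, and by limma on log2(TPM + 1) Mavs was called lower, at -0.26 (adjusted p = 0.0262). Irf3 had a log2 fold change of 0.14 ± 0.13 (adjusted p = 0.511).

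A further list of interferon-stimulated genes outside the set, also chosen with earlier results of these data known, lay mostly on the negative side. Of 93 tested, 19 fell (20.4%) and 1 rose, beside 6.82% of all tested genes called lower and 6.64% called higher. The median log2 fold change of the list was -0.62. Leaving out control replicate 1, 2 or 3 gave 7, 9 and 18 lower, and leaving out mutant replicate 1, 2 or 3 gave 14, 11 and 15. The share of all genes called lower in those fits is not given here, so these counts cannot be set against it. Samd9l fell from 30.2 ± 2.74 to 12.9 ± 2.19 CPM, Ifi27l2b from 20.8 ± 5.00 to 5.61 ± 1.33 CPM and Ifi203 from 9.02 ± 0.743 to 4.04 ± 0.69 CPM (SD, n = 3), with adjusted p of 0.00205, 0.00245 and 0.00797. Cxcl10, a chemokine that attracts T cells and is induced by interferon gamma, fell from 24.6, 11.2 and 8.21 CPM in the controls to 3.17, 2.45 and 3.16 CPM in the mutants, a log2 fold change of -2.33 ± 0.39 (adjusted p = 0.00857). Each of these 4 was called lower in all 16 alternatives. The 1 gene that rose was Ifitm2, named after its values were seen, with a log2 fold change of 0.68 ± 0.12 (adjusted p = 0.0102), and 0 of the list were higher with library totals.

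**Figure D5:**
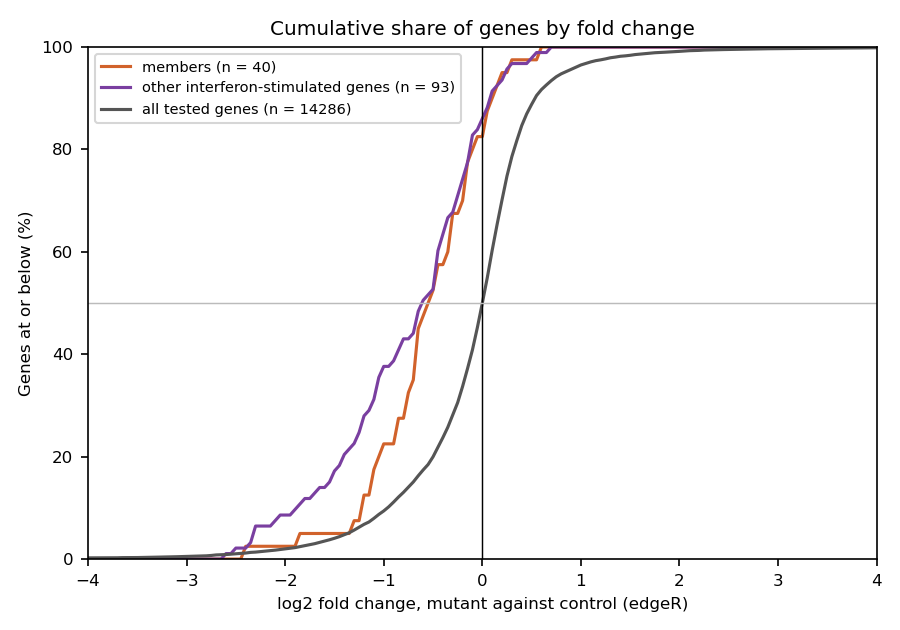
Cumulative share of genes (y axis, %) by log2 fold change, mutant against control (x axis), for the 40 members, the 93 other interferon-stimulated genes tested and all 14286 tested genes. Both interferon curves lie to the left of the curve of all genes, crossing the middle at -0.56 and -0.62 against 0.00.

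With Gbp2, Gbp3 and Gbp7, the lists held 10 guanylate-binding protein genes, a family singled out after its values were seen. All 10 log2 fold changes were negative, from -2.64 to -0.86, also with library totals and on log2(TPM + 1). Of the 10 genes 6 passed, beside 6.82% of all tested genes called lower. Gbp10 measured 119, 75.3 and 24.9 CPM in the controls and 15.8, 9.64 and 9.48 CPM in the mutants, a log2 fold change of -2.64 ± 0.50 (adjusted p = 0.0131), called in all 16 alternatives. Gbp5, Gbp6, Gbp8 and Gbp9 had log2 fold changes of -2.37, -2.07, -1.51 and -1.58 (adjusted p = 0.014, 0.0288, 0.0473 and 0.0469) and were called in 15, 11, 10 and 11 of the 16 alternatives. Each of these 4 calls ended without control replicate 1, and those of Gbp6, Gbp8 and Gbp9 also without control replicate 2 and without mutant replicate 2. Further losses were without mutant replicate 3 for Gbp6 and Gbp9, without mutant replicate 1 for Gbp8 and Gbp9, without control replicate 3 and with the replicate block for Gbp8 (adjusted p = 0.0708 for the block), and with robust fitting for Gbp6. Gbp4, Gbp6, Gbp8, Gbp9, Gbp10 and Gbp11 are closely related copies among which reads may be split.

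Markers of immune cells also differed between the groups, and in bulk tissue fewer cells of a type and less RNA per cell cannot be told apart. The counts below stand beside 6.82% of all tested genes called lower and 6.64% called higher. The 12 Kupffer cell markers summed to 596, 450 and 468 CPM in the controls and 341, 276 and 419 CPM in the mutants, and 3 of 12 fell (C1qb, C1qc and Cd5l) with a median log2 fold change of -0.69; each of these 3 calls ended when control replicate 1 or mutant replicate 1 was left out. The 16 markers of monocyte-derived macrophages summed to 229, 250 and 198 CPM in the controls and 101, 96.1 and 102 CPM in the mutants; 11 of 16 fell, with a median of -1.33. Plasmacytoid dendritic cell markers summed to between 37.6 and 62.9 CPM in the controls and between 10.7 and 15.4 CPM in the mutants, with 1 of 4 tested lower. T and NK cell markers summed to between 7.94 and 10.7 CPM in the controls and 7.12 and 9.70 CPM in the mutants, with 0 of 15 tested lower and 1 higher.

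The order of libraries within a group was shared by markers and members in part. In the controls the Kupffer sum was highest in replicate 1, as were 33 members, but lowest in replicate 2, at 450 CPM against 468 CPM in replicate 3. The monocyte-derived macrophage sum was lowest in control replicate 3, as were 36 members, though highest in replicate 2. In the mutants the Kupffer sum was highest in replicate 3, whereas 33 members were highest in replicate 1. The monocyte-derived macrophage sum was nearly equal in mutant replicates 1 and 3, at 101 and 102 CPM. Endothelial markers summed to 239, 159 and 282 CPM in the controls and 123, 156 and 182 CPM in the mutants. Their sum was thus highest in control replicate 3 among the controls and lowest in mutant replicate 1 among the mutants, unlike most members. No marker of the Kupffer or monocyte-derived macrophage lists was at 0 in all libraries. The part of these cells in the members' lower values was not tested.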

How the data were processed

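Per the labels' protocols, DNase-treated liver RNA was poly(A)-enriched and sequenced as 150-base read pairs. The tools cutadapt and STAR and the build mm10 are named per the submitters' processing notes. For tool versions, the counting program and strandedness: not given in the sources used here. For 6 libraries the authors deposited estimated counts, and in a separate table TPM. No nonzero deposited estimated count was whole (tolerance 1e-06), and over 10983 genes above 0.5 TPM in every library the counts equalled TPM times 1 factor per gene and 1 per library (largest relative deviation 5.7e-10), so counting error is only approximated.

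After rounding, estimated counts went into edgeR 4.0.16 (R version 4.3.3; filterByExpr, TMM, quasi-likelihood F-test on group, Benjamini-Hochberg over 14286 genes, threshold 0.05); standard errors come from the F statistic. No libraries were duplicates (chi-square at least 43.8 per gene). Alternatives were RLE factors, library totals, no filter, a CPM filter, DESeq2 1.42.0, robust fitting, a replicate block, each library left out, and limma 3.58.1 on log2 TPM with pseudocounts 1 and 0.1, with a TPM minimum of 1 in 3 libraries or none; sums of near-identical copies were added after seeing the data. The procedure was tested on simulated data. Coordinates are from GENCODE mouse release 21 (99.4% of identifiers found).

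The members and all lists were chosen with earlier results of these data known. All members may be named; full values were given for Irf1, Irf7, Irf9, Stat2, Isg15, Usp18 and up to 3 members of smallest p per other role, and from each list up to 4 genes of smallest p plus the Ifnar and Ifngr chains, Irf3, Socs1 and Cxcl10; 1 further gene of this rule is not reported here.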

Additional observations from a re-analysis of the deposited data

How the results depend on the processing

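The number of members lower in the mutants, 4, was 19 with library totals, 26 by limma on log2(TPM + 1) and on log2(TPM + 0.1), 18 by limma without a filter, 13 with DESeq2, 15 without a filter, 9 with the replicate block, and 1 to 7 with 1 library left out. Of all genes tested, 31.6% were lower with library totals, 63.6% by limma on log2(TPM + 1), 9.41% with DESeq2 and 5.45% without a filter. The main fit had 6.82% lower. All counts in this paragraph are to be read beside these shares, which are not given here for the other fits. Members higher, 0, became 1 with DESeq2, no filter and the replicate block, and 0 to 1 with 1 library left out; 16 members had an unadjusted p under 0.05. Other interferon-stimulated genes lower, 19, were 59 with library totals, 70 by limma with either pseudocount, 56 by limma without a filter and 7 to 18 with 1 library left out; the 1 higher became 0 with library totals and limma and 2 with the replicate block. Of receptor, signalling and induction genes the 3 lower became 17 with library totals, 30 by limma with either pseudocount, 21 by limma without a filter, 8 with DESeq2, 7 without a filter, 5 with the CPM filter and 1 to 3 with 1 library left out, and the 1 higher became 0 with library totals, limma and the replicate block, 2 with DESeq2 and 0 to 2 with 1 library left out.

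Library totals and TPM move the median gene by -0.40 and -0.48. With library totals these log2 fold changes turned negative: Dhx58 -0.36, Oas1g -0.10, Mx2 -0.21, Bst2 -0.27, Ifi35 -0.33, Xaf1 -0.35, Mavs -0.067, Ifnar1 -0.26, Ifnar2 -0.22 and Irf3 -0.25. On log2(TPM + 1), with or without a filter, they were Dhx58 -0.50, Oas1g -0.035, Mx2 -0.37, Bst2 -0.49, Ifi27 -0.041, Ifi35 -0.52, Xaf1 -0.62, Mavs -0.26, Ifnar1 -0.43, Ifnar2 -0.41, Irf3 -0.44 and Rxra -0.20. On log2(TPM + 0.1) they were Dhx58 -0.56, Mx2 -0.57, Bst2 -0.49, Ifi27 -0.041, Ifi35 -0.54, Xaf1 -0.67, Mavs -0.27, Ifnar1 -0.46, Ifnar2 -0.42, Irf3 -0.44 and Rxra -0.20. With 1 library left out the sign changed within these ranges: Irf7 -0.52 to 0.15, Irf9 -0.25 to 0.082, Dhx58 -0.21 to 0.18, Zbp1 -1.06 to 0.085, Oas1a -0.27 to 0.024, Oas1g -0.25 to 0.70, Oas2 -0.47 to 0.335, Mx2 -0.37 to 0.54, Bst2 -0.090 to 0.315, Ifi35 -0.048 to 0.20 and Xaf1 -0.40 to 0.43. Beyond the scaling, the cause was not tested.

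Over all tested genes, deviations of same-numbered libraries correlated at 0.02, 0.00 and 0.06, and those of other pairs between -0.07 and 0.06. Correlations this near 0 over all genes do not tell whether the replicate numbers pair the libraries. With the replicate block Xaf1 turned to -0.069. Low depth limits Oas2, Oas3, Oas1g and Mx1, which lie under 4 CPM.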

Other observations

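Markers of other liver cells were measured beside the members. Over all tested genes, 6.82% were called lower and 6.64% higher. Stellate cell markers summed to between 307 and 334 CPM in the controls and between 146 and 183 CPM in the mutants, and 6 of 10 fell. Endothelial markers summed to between 159 and 282 CPM in the controls and between 123 and 182 CPM in the mutants, with 2 of 10 lower, and neutrophil markers to between 5.35 and 6.46 CPM and between 1.52 and 2.25 CPM, with 2 of 4 tested lower. Of B and plasma cell markers 1 of 8 was lower, of conventional dendritic cell markers 0 of 7, and of cholangiocyte markers 1 of 7 was lower and 1 higher. Of 10 hepatocyte markers 6 were higher and 0 lower, relative to the typical gene.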
